A study of Mus musculus with 23 samples.

Results

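The comparison described here is of dissected olfactory bulb from Cdr1as knockout (KO) mice with dissected olfactory bulb from wild type (WT) mice, in 6 of the 23 microRNA (miRNA) libraries of the study. The members were taken by their labels: 3 libraries labelled olfactory bulb KO, replicates 1 to 3, and 3 labelled olfactory bulb WT, replicates 1 to 3, with every miRNA counted in them. All mice were C57BL/6, an inbred laboratory strain, and the KO animals carry a deletion of the Cdr1as locus as their labelled genotype. The other 17 libraries are of cerebellum, cortex and hippocampus of the same 2 genotypes and are described only where the olfactory bulb is set against them, though they share the model and its estimate of the spread with the 6. Ages, sexes and the number of animals are not given in the labels, and they do not state whether the libraries of a group are of different animals. The p-values of the model therefore rest on a spread between libraries, estimated over all 23, that may be technical. Libraries of different regions may also come from the same mice, which the labels do not state. Each library is of a whole dissected region, in which fewer cells of a type and less RNA per cell cannot be told apart.

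Cdr1as is a circular RNA of neurons, read from the strand opposite to the Cdr1 gene on the X chromosome, and it is known for its dense array of sites for the miRNA miR-7 and an extensively paired site for miR-671. A miRNA is cut from a hairpin precursor whose arms, called 5p and 3p after their place in the hairpin, can each give a mature strand, and the strand that stays in an Argonaute protein finds its targets mainly through its seed, bases 2 to 8. Targets that pair with little beyond the seed usually leave the miRNA itself in place, whereas targets that pair extensively with the 3′ part of a miRNA can lead to its decay, and a nearly fully paired site can be cut by Argonaute. The olfactory bulb receives the axons of olfactory sensory neurons and takes in newborn interneurons throughout life. In the mouse, miR-7a is known to limit Pax6 protein in progenitors of the forebrain that supply dopaminergic interneurons to the bulb.

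The sequences of the linked miRNAs are shown because the members differ from each other by few bases. They are RefSeq mature sequences, 5′ to 3′, from the table of the GRCm38.p6 build, with the seed in capitals.
miR-7b-5p: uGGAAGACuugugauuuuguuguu
miR-7a-5p: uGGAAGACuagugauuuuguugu
miR-671-5p: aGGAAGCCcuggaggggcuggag
miR-7b-3p: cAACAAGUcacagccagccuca
miR-7a-1-3p: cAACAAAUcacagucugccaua
miR-7a-2-3p: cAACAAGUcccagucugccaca
miR-671-3p: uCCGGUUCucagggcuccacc
Counted from 1 at the 5′ end, miR-7a-5p and miR-7b-5p differ by A10U, and miR-7b-5p has 1 more base at its 3′ end. Their shared seed was held by 2 of the 669 miRNAs tested, namely this pair. The seed of miR-7a-2-3p was also that of miR-7b-3p.

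The hairpins show which arm of which locus each name stands for. Below, the mature arms are in capitals (RefSeq, GRCm38.p6). Mir7-1 lies at chr13:58392779-58392886 on the minus strand, in an intron of Hnrnpk, which encodes an RNA-binding protein. Mir7-2 lies at chr7:78888277-78888373 and Mir7b at chr17:56242988-56243098, both on the plus strand and without a host gene on that strand in GENCODE M21. Mir671 lies at chr5:24592114-24592211 on the plus strand and overlaps an exon of Chpf2.
Mir7-1: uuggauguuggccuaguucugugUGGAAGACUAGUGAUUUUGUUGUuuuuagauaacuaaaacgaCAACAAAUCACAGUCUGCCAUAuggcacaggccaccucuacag
Mir7-2: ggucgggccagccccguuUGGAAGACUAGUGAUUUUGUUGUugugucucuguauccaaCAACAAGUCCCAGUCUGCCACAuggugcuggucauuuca
Mir7b: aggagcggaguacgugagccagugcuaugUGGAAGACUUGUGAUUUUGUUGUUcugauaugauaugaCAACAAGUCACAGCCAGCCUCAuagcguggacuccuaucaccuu
Mir671: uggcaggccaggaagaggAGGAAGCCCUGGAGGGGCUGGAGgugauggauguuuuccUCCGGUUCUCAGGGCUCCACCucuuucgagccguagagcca
Reads of miR-7a-5p can come from Mir7-1 or Mir7-2, which hold the same 5p arm, whereas miR-7a-1-3p and miR-7a-2-3p tell the loci apart. Reads of miR-7a-5p and miR-7b-5p are told apart by the base at A10U. The extra 3′ base of miR-7b-5p does not tell them apart, as the base after miR-7a-5p is also u in Mir7-1 and Mir7-2. The handling of reads that match both is not stated in any source used here.

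The deleted RNA itself is not counted in miRNA libraries, so the knockout cannot be checked in these samples. Matches to the miR-7 seed can be read from the reference, and were read only over the span of the annotated Cdr1 transcript. Whether Cdr1as reaches beyond that span was not examined, so the count may not cover the whole of Cdr1as. On the strand opposite to the annotated Cdr1 transcript (GENCODE M21, 1554 bases, GRCm38), the letters GTCTTCC, which are complementary to the miR-7 seed, were found 79 times, and on the Cdr1 strand 0 times. Among 5060 other transcripts within 100 bases of that length, 14.2% held the letters on their own strand and 22.8% on the opposite one, with at most 4 and 12 copies. Over all transcripts not named Cdr1, of any length, the highest number on either strand was 125. Whether the transcript with that number overlaps the Cdr1 locus was not examined. The first, the middle and the last of the 79 matches are printed from the plus strand, with the match in capitals.
chrX:61184005-61184034: tcaacGTCTTCCccaaaatccatgtcttcc
chrX:61184766-61184795: agtcttcccgaaaatccaaGTCTTCCcaga
chrX:61185522-61185551: agtcttcccagaaacccatGTCTTCCtgaa
Successive matches began 18 bases apart at the median and at the closest, and 72 at the farthest. The base facing position 9 of the miRNA was complementary to it at 70 of the 79 matches for miR-7a-5p and for miR-7b-5p alike. The base facing position 10 was complementary at 66 matches for miR-7b-5p and at 0 for miR-7a-5p, which differ there by A10U. These are counts of letters, and binding was not measured here.

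Total miRNA counts were 7466573, 8515335 and 2530737 in the KO libraries, against 13070794, 7499705 and 4951700 in the WT libraries. Of 1915 names in the files, 1194 had a count in an olfactory bulb library and 669 passed the filter on low counts and were tested, 667 of which had a count in these 6 libraries. The tissue label was borne out by miRNAs of the bulb: miR-182-5p, of a cluster known from sensory cells, had 159526 to 301041 CPM (counts scaled by library size) in the 6 libraries and 96.3 to 5055 CPM in the other 17. MiR-200a-3p, of the family needed for olfactory neurogenesis in the mouse, had 11313 to 14215 CPM in the 6 libraries and 0.875 to 348 CPM in the other 17. CPM here are read counts per library total times the TMM factor of edgeR over all 23 libraries, so their sum differs between libraries. KO replicate 3, which had the lowest total, stood apart from the rest: on the first principal component of the 6 libraries (38.0% of the variance, 547 miRNAs) it lay at 9.52, against -5.34 and -1.17 in the other KO libraries and -1.81 to -0.47 in the WT libraries.

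MiR-7b-5p was lower in KO olfactory bulb and was 1 of 669 miRNAs past the threshold (0.149% of those tested), while 0 were higher. The threshold was a p under 0.05 from the quasi-likelihood test of edgeR after Benjamini-Hochberg adjustment over the 669. At an unadjusted p under 0.05, 10 miRNAs (1.49%) had lower and 10 (1.49%) had higher values in KO, 2.99% in all. In 43 miRNAs (6.43%) the KO and WT values did not overlap, with KO below WT in 21 (3.14%) and above it in 22 (3.29%), and 30 of the 43 averaged under 10 CPM. With 3 libraries against 3, groups without any difference would fail to overlap in a share of 0.1, which is above the 6.43% seen. The median log2 fold change of KO over WT over all 669 was 0.02. Of 190 miRNAs with at least 100 CPM in both groups, 180 had a log2 fold change within 0.25 of 0 and 188 within 0.5, and the remaining 2 were miR-375-3p and miR-146a-5p.

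**Figure D1:**
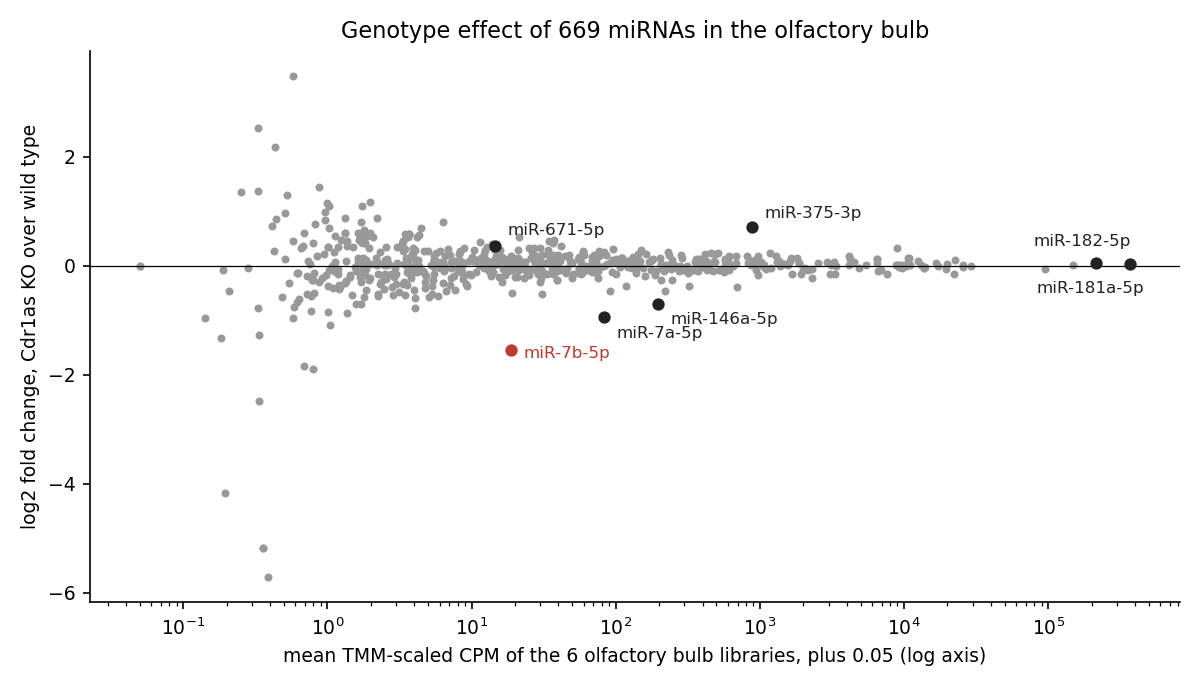
Log2 fold change of KO over WT in the olfactory bulb (vertical axis) against the mean TMM-scaled CPM of the 6 libraries plus 0.05 (horizontal log axis), 1 point for each of 669 miRNAs. MiR-7b-5p, in red, is the miRNA past the adjusted threshold at -1.54, and the abundant miRNAs on the right lie close to 0.

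MiR-7b-5p, a guide strand of the miR-7 family, had 7.56, 11.2 and 10.04 CPM in KO libraries 1 to 3, against 22.5, 33.5 and 28.4 CPM in WT libraries 1 to 3. Every KO value lay below every WT value. These values rest on 35, 73 and 19 counts in KO and 210, 183 and 98 counts in WT. The mean was 9.61 ± 1.88 CPM in KO and 28.1 ± 5.48 CPM in WT (SD, n = 3 each). That is a log2 fold change of -1.54 (SE 0.27, 95% interval -2.10 to -0.97) or 2.90-fold lower, with an adjusted p of 0.0097 (edgeR, Benjamini-Hochberg). The call was lost without WT replicate 2 (-1.40, adjusted p = 0.0909), without KO replicate 1 (-1.37, adjusted p = 0.179) and when the 6 olfactory bulb libraries were fitted alone (-1.56, adjusted p = 0.0940), with the direction kept.

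MiR-7a-5p, the more abundant guide strand of the family, had 44.1, 53.3 and 75.6 CPM in KO libraries, against 82.1, 138 and 107 CPM in WT libraries. Its groups did not overlap either, with KO replicate 3 nearest to WT replicate 1. Counts were 204, 346 and 143 in KO and 765, 752 and 370 in WT. The mean of 57.6 ± 16.2 CPM in KO and 109 ± 27.8 CPM in WT (SD, n = 3 each) gave a log2 fold change of -0.94 (SE 0.25, 95% interval -1.45 to -0.42), which did not pass (unadjusted p = 0.00109, adjusted p = 0.365, edgeR with Benjamini-Hochberg adjustment). With no filter on low counts it passed, at -0.99 and an adjusted p of 0.000268, and with DESeq2 it did not (adjusted p = 0.0937).

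Summed over both guides, the miR-7 level had a log2 fold change of -1.05 and an adjusted p of 0.198 (edgeR, Benjamini-Hochberg). The sum passed with DESeq2 (-1.06, adjusted p = 0.0234) and with no filter (-1.09, adjusted p = 2.28e-05). It did not pass with RLE, upper quartile or library size scaling, limma-voom, a replicate block or the olfactory bulb alone (adjusted p from 0.125 to 0.997, edgeR or limma). Leaving out any 1 of the 6 libraries gave -1.24 to -0.86, and the sum did not pass in any of these fits.

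The composition of the miR-7 pool was compared after the values were seen. MiR-7b-5p made up 14.6%, 17.4% and 11.7% of the counts of both guides in KO libraries 1 to 3, against 21.5%, 19.6% and 20.9% in WT libraries. Each KO share lay below each WT share. The log2 ratio of miR-7b-5p to miR-7a-5p averaged -2.55 ± 0.32 in KO and -1.94 ± 0.09 in WT (SD, n = 3 each), a difference of -0.61 with a two-sided exact permutation p of 0.1, the smallest that 3 libraries against 3 can give. The same difference was -0.19 in cerebellum, 0.13 in cortex and 0.05 in hippocampus (exact permutation p = 0.5, 0.2 and 0.8). The SD in cerebellum was 0.39 in KO and 0.37 in WT, and hippocampus had 2 KO libraries. The lowest share in the bulb, that of KO replicate 3, rests on 19 counts of miR-7b-5p. Whether the shift differs between regions was not tested.

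The 3p arms, which come from the same hairpins as the guides, had overlapping KO and WT values. MiR-7a-1-3p had 51.8, 49.4 and 34.3 CPM in KO, against 52.6, 47.4 and 40.2 CPM in WT (log2 fold change -0.04, SE 0.15, adjusted p = 1 by edgeR with Benjamini-Hochberg adjustment). MiR-7a-2-3p had 17.9, 15.9 and 19.6 CPM in KO, against 16.6, 17.8 and 15.9 CPM in WT (0.06, SE 0.26). The values of KO and WT interleaved for each. MiR-7b-3p rested on 1, 8 and 1 counts in KO and 19, 3 and 4 counts in WT, too few to place its log2 fold change of -0.85 (SE 0.54) apart from 0.

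**Figure D2:**
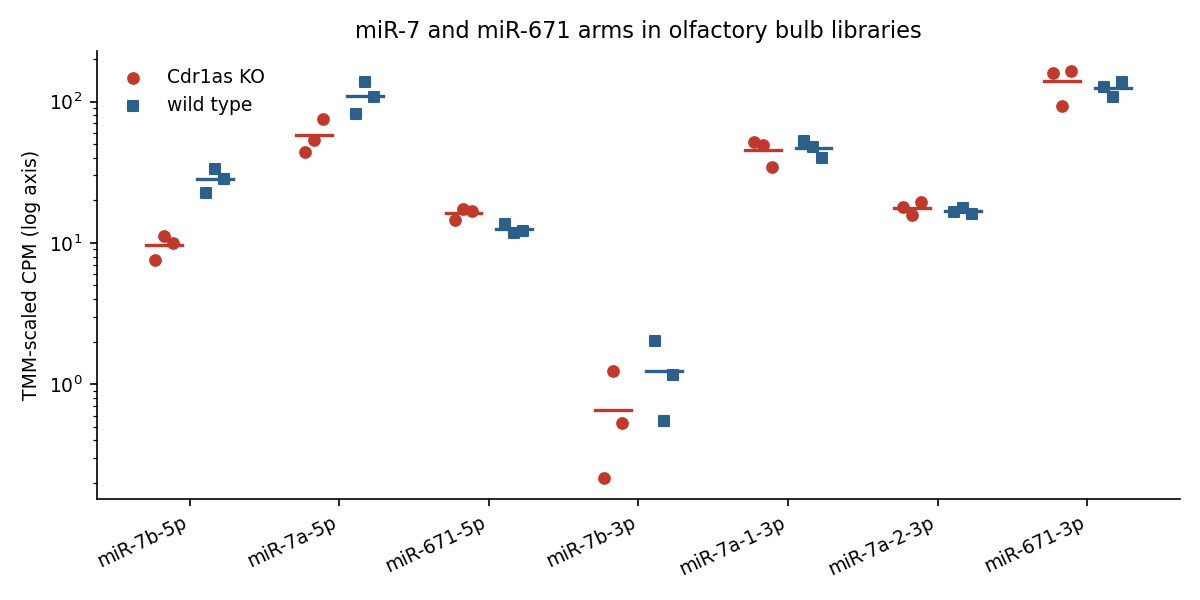
TMM-scaled CPM on a log axis of the miR-7 and miR-671 arms, with 1 point per library (KO in red at the left of each pair, WT in blue) and a line at the mean of each group. MiR-7b-5p and miR-7a-5p show KO points below all WT points, and the 3p arms of miR-7a show mixed points.

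Setting the arms against each other within a library removes the scaling between libraries. The log2 ratio of miR-7a-5p to its 3p arms, with 0.5 added to each count, was -0.66, -0.29 and 0.49 in KO libraries 1 to 3, against 0.25, 1.08 and 0.93 in WT libraries. KO replicate 3 lay above WT replicate 1, so the groups overlapped. The mean was -0.16 ± 0.59 in KO and 0.75 ± 0.44 in WT (SD, n = 3 each), a difference of -0.91 or a ratio 1.88-fold lower, with a two-sided exact permutation p of 0.2. For miR-7b the ratios were 4.56, 3.11 and 3.70 in KO, against 3.43, 5.71 and 4.45 in WT, a difference of -0.74 (exact permutation p = 0.5). For miR-671 they were -3.44, -2.42 and -3.26 in KO, against -3.20, -3.20 and -3.50 in WT, a difference of 0.26 (exact permutation p = 0.8) that turned to -0.05 without KO replicate 2. The smallest p this design allows is 0.1, and adjusted over the 3 ratios by the Benjamini-Hochberg method the values were 0.6, 0.75 and 0.8.

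The same difference was computed for 199 miRNAs with both arms tested, to show how far arm ratios move between these libraries. Apart from miR-7a, miRNAs whose arm names carry a locus number were left out, so the set does not hold every miRNA with both arms. Its median was -0.02, with the 5th to 95th percentile from -0.68 to 0.65, and the groups did not overlap in 7 of them (3.52%). In the 127 with a mean of at least 20 counts in the lesser arm, the 5th to 95th percentile ran from -0.31 to 0.39. MiR-7a, at -0.91, was the lowest of these 127, followed by miR-377 at -0.58, miR-490 at -0.47 and let-7g at -0.42. The highest of the 127 were miR-1839 at 0.78, miR-185 at 0.75 and miR-17 at 0.65. Among the 199, miR-7a was number 7 from the lowest and number 12 by size of the difference.

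**Figure D3:**
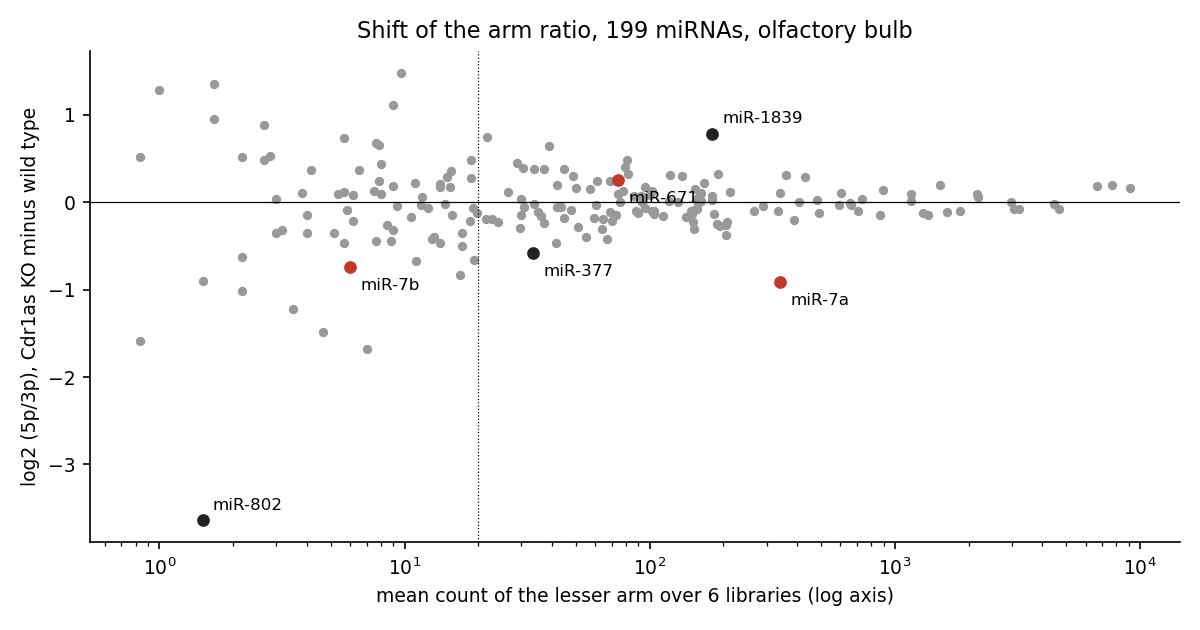
Difference between KO and WT in the mean log2 ratio of 5p to 3p counts (vertical axis) against the mean count of the lesser arm over the 6 libraries (horizontal log axis), for 199 miRNAs. The dotted line marks 20 counts, and to its right miR-7a lies lowest at -0.91 and miR-1839 highest at 0.78.

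MiR-671-5p, the strand known to direct cutting of Cdr1as, had 14.5, 17.4 and 16.9 CPM in KO, against 13.6, 11.7 and 12.2 CPM in WT. Every KO value lay above every WT value, beside 6.43% of all miRNAs whose groups did not overlap. The mean was 16.3 ± 1.57 CPM in KO and 12.5 ± 1.002 CPM in WT (SD, n = 3 each), a log2 fold change of 0.37 (SE 0.16, 95% interval 0.03 to 0.71) that did not pass (unadjusted p = 0.0362, adjusted p = 1, edgeR with Benjamini-Hochberg adjustment). Its 3p arm, miR-671-3p, was the more abundant strand, at 158, 93.5 and 164 CPM in KO and 126, 108 and 139 CPM in WT, and its groups overlapped (0.15, SE 0.18).

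The most abundant miRNAs of the bulb are printed with their seeds in capitals, as they hold most of the reads.
miR-181a-5p: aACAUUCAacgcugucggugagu
miR-181b-5p: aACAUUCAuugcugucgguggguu
miR-182-5p: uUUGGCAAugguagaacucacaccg
miR-183-5p: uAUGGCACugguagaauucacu
MiR-181a-5p and miR-181b-5p share their seed, which 4 tested miRNAs of the miR-181 family hold. MiR-181a-5p, a neuronal and lymphoid miRNA, took 25.2%, 25.99% and 28.3% of the reads in KO libraries, against 25.99%, 25.7% and 26.9% in WT libraries. MiR-182-5p took 18.7%, 14.8% and 11.9% in KO, against 15.8%, 14.4% and 14.9% in WT. The spread of miR-182-5p among KO libraries was wider than among WT libraries, and its groups overlapped. MiR-9-5p, a miRNA of neural progenitors and neurons, took 10.04%, 10.2% and 11.2% in KO, against 10.2%, 10.9% and 10.5% in WT. The 10 most abundant together, which also include miR-26a-5p, let-7f-5p, miR-183-5p, miR-128-3p, miR-181b-5p, the neuronal miR-124-3p and miR-22-3p, held 67.9% to 70.4% of the reads in KO and 68.5% to 69.5% in WT. Their log2 fold changes ran from -0.14 for miR-124-3p to 0.11 for miR-181b-5p, and 0 of the 10 passed the threshold by edgeR (none had an unadjusted p under 0.05).

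Among miRNAs with a mean of at least 10 CPM in a group that did not pass, the 8 with the smallest p and higher values in KO, which include miR-671-5p, had log2 fold changes of 0.21 to 0.72. MiR-375-3p, known from pancreatic islets and other secretory cells, had 836, 683 and 1798 CPM in KO, against 680, 662 and 670 CPM in WT. KO replicate 3 held the highest of the 6 values, and the log2 fold change of 0.72 (SE 0.33, unadjusted p = 0.0429) became 0.18 without it. MiR-137-3p, a neuronal miRNA, had 101, 113 and 105 CPM in KO, against 89.8, 89.5 and 77.5 CPM in WT, with no overlap and a log2 fold change of 0.31 (SE 0.18, adjusted p = 1 by edgeR with Benjamini-Hochberg adjustment). Let-7g-3p, the rarer strand of let-7g, had 13.8, 14.8 and 14.8 CPM in KO, against 11.9, 12.99 and 8.68 CPM in WT, also with no overlap. Groups did not overlap in 6.43% of all miRNAs. MiR-28a-5p had 70.8, 55.6 and 66.6 CPM in KO and 50.8, 57.6 and 51.5 CPM in WT, with overlapping groups. MiR-28c had nearly the same values as miR-28a-5p in each library, from 56.4 to 71.5 CPM in KO and from 51.8 to 58.0 CPM in WT. Whether the same reads were counted under both names was not examined, so they may not be separate signals. The other members of this set, miR-135a-2-3p and miR-1843a-5p, had log2 fold changes of 0.44 and 0.21 and overlapping groups.

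On the other side, miR-146a-5p, which NF-kappaB induces in inflammation, had 225, 127 and 93.5 CPM in KO, against 133, 320 and 273 CPM in WT. KO replicate 1 lay above WT replicate 1, so the groups overlapped. Its log2 fold change was -0.69 (SE 0.32, unadjusted p = 0.0412, adjusted p = 1 by edgeR with Benjamini-Hochberg adjustment), -0.45 without WT replicate 2 and -0.46 without KO replicate 3. With no filter on low counts it passed (-0.74, adjusted p = 0.0357). MiR-10a-5p, encoded in a Hox cluster, had 103, 66.1 and 58.7 CPM in KO, against 76.5, 147 and 91.7 CPM in WT, and its groups overlapped too. MiR-26b-5p had 2511, 2311 and 1563 CPM in KO and 2374, 2822 and 2301 CPM in WT. The remaining members of this set, miR-7068-3p, miR-1839-3p, miR-370-3p and miR-345-3p, had log2 fold changes of -0.49, -0.53, -0.23 and -0.30, all with overlapping groups.

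The miRNA lists for cell types and pathways showed 0 members past the threshold other than miR-7b-5p by edgeR, in any of 13 lists. Of the 15 tested members of the miR-200 family and miR-183 cluster (16 listed), 0 passed, 0 had an unadjusted p under 0.05, and the median log2 fold change was 0.02, beside 0.02 over all miRNAs. Its range was -0.70 to 0.14, where the lowest, miR-200c-5p, had 1.08 to 1.58 CPM in KO and 1.28 to 2.60 CPM in WT. Of 14 tested members of the neuron identity and neurogenesis list, 0 passed, the median was 0.01, and miR-137-3p was the member whose groups did not overlap, beside 6.43% of all miRNAs. Of 9 activity-regulated miRNAs 0 passed and the median was -0.01. Among them miR-132-3p, which CREB induces with neuronal activity, had 3394, 3734 and 6008 CPM in KO, against 3803, 4143 and 3668 CPM in WT, with KO replicate 3 highest.

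The Dlk1-Dio3 cluster, a large imprinted group of miRNAs expressed from the maternal chromosome, had 43 tested members, of which 0 passed. Their median log2 fold change was 0.07, with 30 above 0 and 13 below, beside 377 above and 290 below over all 669. Its abundant members miR-434-3p, miR-381-3p and miR-411-5p had log2 fold changes of 0.08, 0.06 and 0.12. The groups did not overlap in 1 member with lower and 1 with higher KO values, beside 6.43% of all miRNAs. The 9 let-7 guide arms ranged from -0.09 to 0.12. Of 16 miRNAs of the chromosome X list, which holds clusters and neighbours of the Cdr1as locus, 8 had a count in the bulb and 3 were tested, miR-504-5p, miR-505-3p and miR-505-5p, at -0.45, -0.11 and -0.22 with overlapping groups.

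Lists for other cell types of the bulb held 0 called members each. In the microglia and leukocyte list, 5 of 6 members had a negative log2 fold change, beside 290 of all 669 miRNAs, and the median was -0.15. The summed level of the list was 707 to 786 CPM in KO and 819 to 938 CPM in WT, without overlap. Without miR-146a-5p, whose own groups overlapped, the sum of the other 5 was 561, 659 and 613 CPM in KO, against 686, 618 and 546 CPM in WT, and the groups overlapped. Its members miR-142a-5p and miR-223-3p, which mark blood-derived and myeloid cells, stood at -0.27 and -0.05, and miR-150-5p, of lymphocytes, at 0.13. KO replicate 1 and WT replicates 2 and 3 held the highest values of miR-146a-5p and miR-142a-5p and the lowest of miR-150-5p. In the choroid plexus and ciliated epithelium list, 10 of 11 members had a positive log2 fold change, beside 377 of all 669 miRNAs, and the median was 0.18. Of these 11, 0 had an unadjusted p under 0.05 by edgeR, and some are arms of the same hairpin. The summed level of the list was 4367 to 4953 CPM in KO and 4115 to 5187 CPM in WT. Its member miR-34c-5p, of ciliated cells, had 247, 268 and 240 CPM in KO, against 209, 201 and 228 CPM in WT, with a log2 fold change of 0.25 (SE 0.41). Its groups did not overlap, beside 6.43% of all miRNAs. Medians of the oligodendrocyte (5 tested), red blood cell (7), endothelial and mural (6) and other brain regions (5) lists were -0.02, 0.01, -0.05 and 0.01. Their ranges were -0.11 to 0.19, -0.09 to 0.30, -0.16 to 0.60 and -0.47 to 0.14. In the other brain regions list miR-10b-5p (-0.47) and miR-10a-5p (-0.46) lay below 0 and the other 3 above it. What these marker levels contribute to the fall of miR-7b-5p was not tested.

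**Figure D4:**
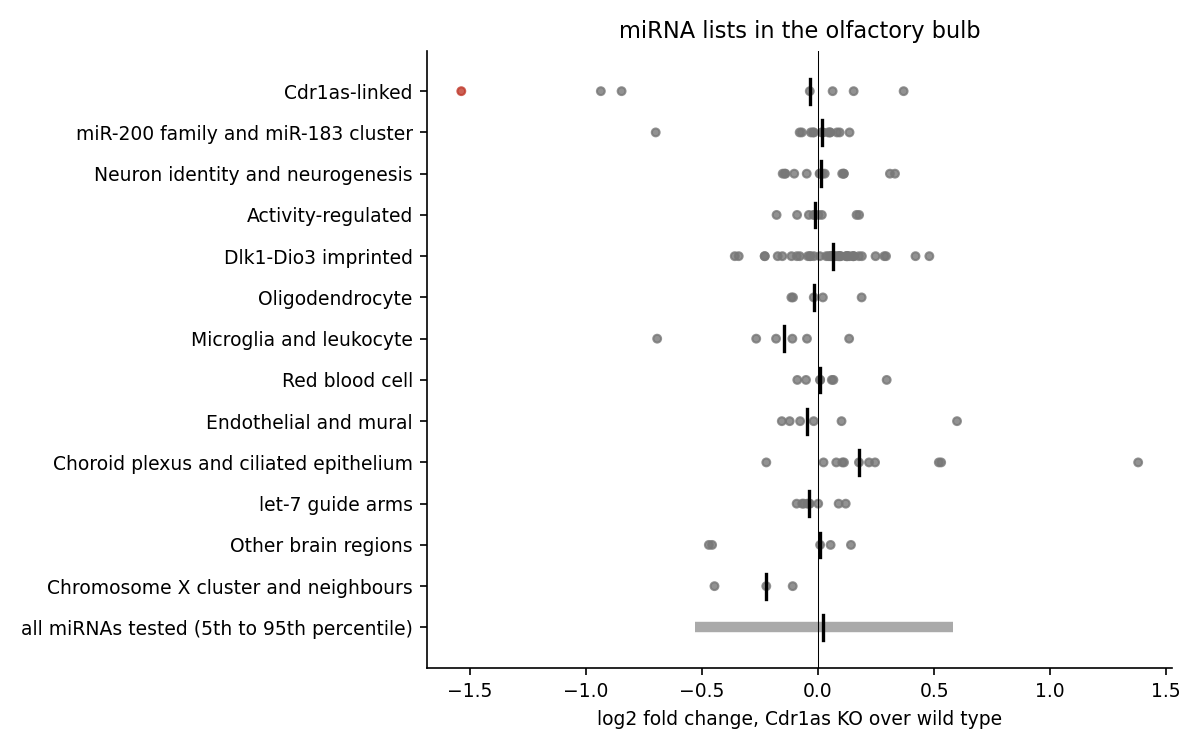
Log2 fold change of KO over WT (horizontal axis) of each tested member of the 13 lists, 1 point per miRNA, with a vertical bar at each list's median. The bottom row gives the 5th to 95th percentile over all 669 miRNAs, and miR-7b-5p at -1.54 is the point in red.

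The genotype effect in the bulb was set against the mean effect of cerebellum, cortex and hippocampus, to ask whether the bulb responds differently. If libraries of different regions share mice, which was not modelled, the SE and p of this contrast do not account for it. For miR-7b-5p the log2 fold change was -1.54 in the bulb, -1.07 in cerebellum, -1.004 in cortex and -1.26 in hippocampus, and the difference of -0.43 (SE 0.31) did not pass (adjusted p = 0.9998, edgeR with Benjamini-Hochberg adjustment). For miR-7a-5p it was -0.94 in the bulb, -0.90, -1.13 and -1.31 in the other regions in that order, and the difference was 0.18 (SE 0.28). MiR-7b-5p averaged 9.61 CPM in KO and 28.1 CPM in WT bulb, and 3.26 and 6.97 CPM in KO and WT cerebellum, where it was scarcest. For miR-671-5p the effect was 0.37 in the bulb, 0.93 in cerebellum, 0.53 in cortex and 0.02 in hippocampus, with a difference of -0.12 (SE 0.19).

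In that contrast 3 of 669 miRNAs passed (0.448%), all of the miR-200 family and miR-183 cluster: miR-141-3p, miR-200b-3p and miR-183-5p. Their effects in the bulb were 0.02, 0.02 and -0.02, whereas in cortex they were -4.46, -3.33 and -4.13. In the bulb miR-141-3p had 13106, 9687 and 6490 CPM in KO, against 9603, 9559 and 9706 CPM in WT. In cortex it averaged 7.22 CPM in KO and 167 CPM in WT. Set against cerebellum and hippocampus without cortex, a choice made after the data were seen, 0 miRNAs passed by edgeR (18 had an unadjusted p under 0.05).

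**Figure D5:**
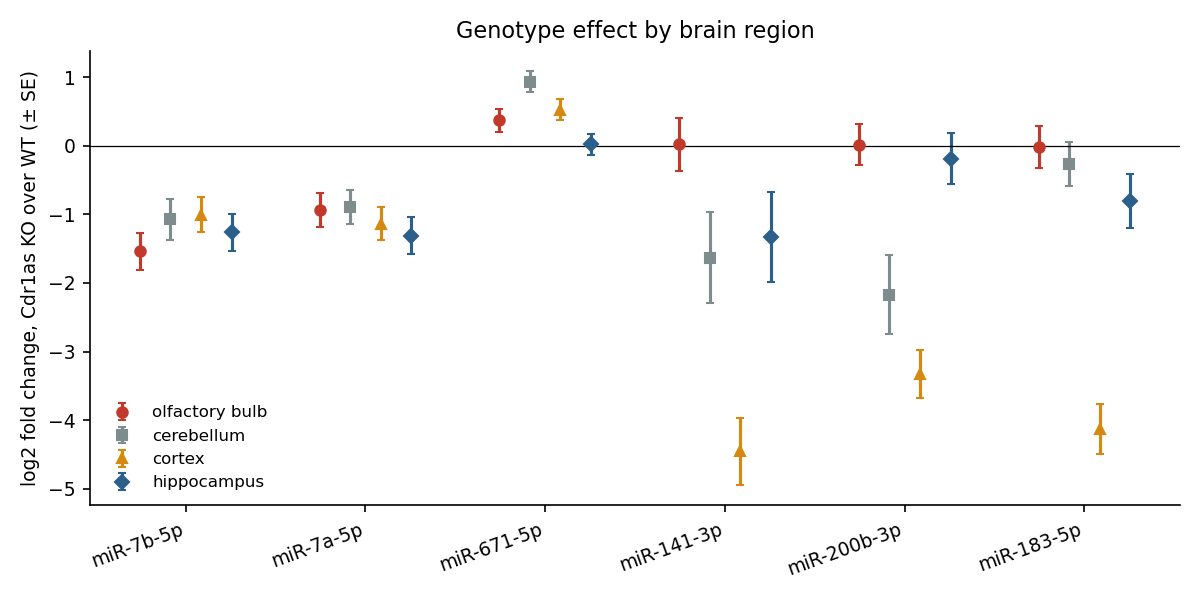
Log2 fold change of KO over WT with its SE (vertical axis) in olfactory bulb, cerebellum, cortex and hippocampus, for the miR-7 guides, miR-671-5p and the 3 miRNAs whose effect differed between the bulb and the mean of the other regions. The miR-7 guides lie between -1.54 and -0.90 in all 4 regions, and miR-141-3p, miR-200b-3p and miR-183-5p lie near 0 in the bulb and between -4.46 and -3.33 in cortex.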

How the data were processed

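Per the labels' protocols, RNA of dissected olfactory bulb came from TRIZOL extraction and the TruSeq Small RNA kit made the libraries. The authors deposited 1 table per library of raw read counts per mature miRNA, a unit read from the values, and per the submitters' processing notes the build was mm9. Neither the aligner nor the counting program, nor the treatment of reads matching more than 1 miRNA, is stated in the sources used here. No coordinates were taken from these files, and those printed are of GRCm38. RefSeq held 1623 of the 1915 names.

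The test was the two-sided quasi-likelihood F test of edgeR 4.0.16, run in R 4.3.3. MiRNAs were kept by filterByExpr (minimum count 10, minimum total 15), scaled with TMM factors, and fitted with 8 group means over all 23 libraries, which share 1 estimate of the spread. P-values were adjusted over 669 miRNAs, which hold at least 99.99% of each olfactory bulb library's counts. The edgeR procedure was checked on simulated data with changes planted in many miRNAs of at least 10 CPM, which does not show its power to find a lone change. Replicate pairs of a group differed beyond sampling noise (chi-square per degree of freedom 28.4 to 204). Reads were amplified and carry no molecular identifiers, so read counts overstate the number of molecules seen. Arm ratios were compared by exact permutation tests. Picked for naming were the 7 linked miRNAs, those past the threshold, those that differed between regions and the 10 most abundant. The 8 smallest p on each side with a mean of at least 10 CPM and the 3 most abundant of each list were picked as well. Some of the list members picked are not printed and enter only through the summary of their list. Alternatives were other scalings (RLE, upper quartile, library size), no filter, DESeq2 1.42.0, limma-voom (limma 3.58.1), a replicate block, the olfactory bulb alone and leaving out each library. The members and lists were chosen with earlier results of these data known.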

Additional observations from a re-analysis of the deposited data

Results flagged for a closer look

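The genotype effect in the olfactory bulb minus the mean effect in cerebellum, cortex and hippocampus passed the threshold for 3 miRNAs, by a test of the difference itself. It was 2.49 (SE 0.52) for miR-141-3p, 1.91 (SE 0.40) for miR-200b-3p and 1.71 (SE 0.37) for miR-183-5p on the log2 scale, each with an adjusted p of 0.0408 (edgeR, Benjamini-Hochberg). Against cerebellum and hippocampus alone the differences were 1.501, 1.20 and 0.51, with an adjusted p of 0.9998 each. All 3 calls were lost without WT replicate 1, 2 or 3 and without KO replicate 1 or 2 of the bulb (adjusted p from 0.0997 to 0.211), while the differences stayed between 1.49 and 2.50.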

How the results depend on the processing

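The 1 miRNA past the threshold was miR-7b-5p under RLE, upper quartile and library size scaling, DESeq2, limma-voom and the replicate block. With no filter 4 miRNAs passed, all lower in KO (miR-7b-5p, miR-7a-5p, miR-146a-5p and miR-466h-3p, the last on 0 counts in KO and 12, 4 and 0 in WT), where the prior degrees of freedom were 1088 against 4.98 as reported. Fitted on the olfactory bulb libraries alone 0 passed by edgeR (5 with an unadjusted p under 0.05), and 0 with a replicate block as well (3). Leaving out 1 library gave 0 or 1, with 0 without WT replicate 2 or KO replicate 1. The sum of the miR-7 guides had -1.24 to -0.86 when 1 library was left out, and gained the call with DESeq2 (-1.06) and with no filter (-1.09). The count of miRNAs that differed between the bulb and the other regions was 3 as reported and with RLE, 2 with upper quartile (miR-183-5p lost, adjusted p = 0.0525), 0 by library size, with a replicate block or without cortex, 19 with no filter, 6 with DESeq2 and with limma-voom, and 0 to 4 when 1 library was left out. The causes were not tested. Arm ratio differences with 1 library left out were -1.23 to -0.65 for miR-7a, -1.29 to -0.15 for miR-7b and -0.053 (reversed, without KO replicate 2) to 0.46 for miR-671. Of 966 single-miRNA alternatives, 935 kept their side of the threshold, 2 gained and 29 lost a call, and 151 values that were not called changed sign. Most of the 966 were of miRNAs not called as reported, which had no call to lose. All 29 losses fell on the results that were called, namely miR-7b-5p in the bulb and the 3 miRNAs that differed between regions.

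The replicate numbers showed no sign of pairing the samples: the deviations of same-numbered libraries correlated at -0.17, 0.04 and 0.13, and 2 of 6 libraries correlated best with their own number. With so few libraries in a group, this check cannot exclude a pairing. With a replicate block miR-7b-5p was at -1.55 (adjusted p = 0.0089), and the arm ratios had exact permutation p of 0.25, 0.75 and 0.75, where 0.25 is the smallest possible. Counts limit the rare arms: miR-7b-3p had 1 to 19 counts in each of the 6 libraries.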

Other observations

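Several miRNAs, chosen after their values were seen, varied widely between libraries within both genotypes. MiR-138-5p, a brain miRNA of synapses, had 5896, 11822 and 12336 CPM in KO libraries 1 to 3, against 11215, 6430 and 6234 CPM in WT libraries 1 to 3, so KO replicates 2 and 3 and WT replicate 1 were high and the other 3 libraries low. MiR-150-5p had 293, 447 and 457 CPM in KO, against 504, 281 and 302 CPM in WT, with the same 3 libraries high. MiR-146b-5p, the relative of miR-146a-5p, had 773, 547 and 472 CPM in KO, against 452, 931 and 968 CPM in WT, with the same 3 libraries low. MiR-142a-5p had 237, 186 and 136 CPM in KO, against 160, 298 and 218 CPM in WT, and KO replicate 1 and WT replicates 2 and 3 were again its highest. The labels give no batch, sex or age that would part these libraries, and no test was made. The share of all tested miRNAs that part the libraries in this way was not counted, so whether the pattern is unusual cannot be told. By genotype, groups did not overlap in 6.43% of all miRNAs, and a share of 0.1 would arise without any difference.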
